A study of Homo sapiens with 5 samples.

Results

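The lncRNAs described here are 10 long non-coding RNAs often studied in cancer: MALAT1, NEAT1, H19, HOTAIR, MEG3, UCA1, GAS5, SNHG1, TUG1 and LINC00152. They were taken by symbol from the 37181 entries of an expression table, of which 8522 carry a gene that GENCODE release 29 classes as long non-coding. A total of 9 lncRNAs were listed under the given symbol, and LINC00152 was listed under its later name CYTOR. Each had 1 entry, so no choice between rows was needed.

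The samples were RNA from HCC827, a human lung adenocarcinoma cell line whose EGFR gene carries an activating deletion in exon 19. HCC827/GR cells (3 libraries, replicates 1, 2 and 3) are the gefitinib-resistant line that was raised from the parental cells under rising doses of gefitinib, an EGFR kinase inhibitor, for more than 6 months. HCC827 cells (2 libraries, replicates 2 and 3, labelled HCC827/GS) are the sensitive parental line, so both groups stem from cells that carry the EGFR deletion. Whether HCC827/GR kept the deletion was not tested here. HCC827/GR is 1 selected line from 1 parent, and whether it was cultured with gefitinib at harvest was not given in the sources used here. Nothing states that the replicates came from separate cultures, so the p-values measure only the spread between these libraries. Levels are FPKM, fragment abundances scaled to transcript length and library size, so levels of genes of different length can be compared. The read depth behind them is unknown.

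Long non-coding RNAs act as RNA, without being translated. MALAT1 and NEAT1 stay in the nucleus, where MALAT1 gathers in speckles rich in splicing factors and NEAT1 builds paraspeckles. H19 and MEG3 are imprinted and are made from the maternal chromosome, HOTAIR lies among the HOXC genes and has been tied to chromatin silencing, and GAS5 and SNHG1 carry small nucleolar RNAs in their introns. UCA1, TUG1 and LINC00152 are transcripts that many tumours express at raised levels.

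The 10 lncRNAs covered a very wide range of levels, and the order of their means was the same in both cell lines except that MALAT1 and UCA1 changed places. MALAT1 and UCA1 had the highest levels, with means over the 5 libraries of 128.7 and 88.0 FPKM, which placed them 6th and 12th among the lncRNA entries of the table. GAS5 (24.0 FPKM), NEAT1 (15.4 FPKM), SNHG1 (8.50 FPKM) and TUG1 (7.40 FPKM) formed a middle group. LINC00152 (1.51 FPKM), H19 (0.843 FPKM) and HOTAIR (0.347 FPKM) were low, and MEG3 was listed at 0 in 3 of 5 libraries and reached at most 0.00236 FPKM. Neighbours in this order were compared by their range over the 5 libraries. The ranges of MALAT1 and UCA1, of GAS5 and NEAT1, of NEAT1 and SNHG1, and of SNHG1 and TUG1 overlapped, and no lncRNA of these pairs was the higher in all 5 libraries, so these pairs cannot be ranked. The ranges of H19 and HOTAIR also overlapped, but H19 was above HOTAIR in each of the 5 libraries. The ranges of UCA1 and GAS5, of TUG1 and LINC00152, of LINC00152 and H19, and of HOTAIR and MEG3 did not overlap. In bulk RNA, fewer cells that express an RNA and less of it per cell cannot be told apart.

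**Figure D1:**
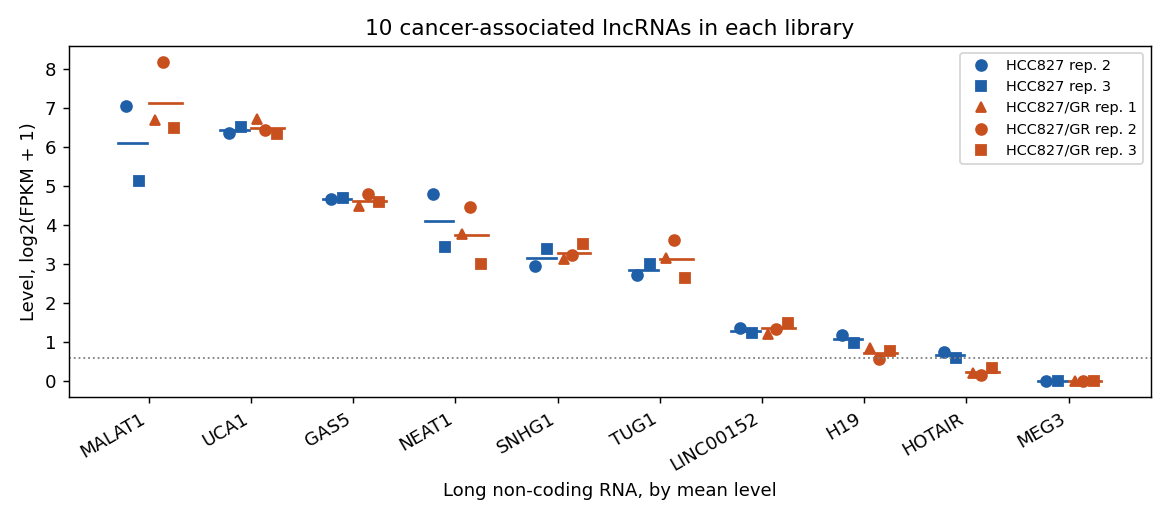
Level of each of the 10 lncRNAs, log2(FPKM + 1), in the 2 HCC827 libraries (blue) and the 3 HCC827/GR libraries (orange); the symbol shape gives the replicate number, short lines are group means and the dotted line is the filter of 0.5 FPKM. Only H19 and HOTAIR separate the groups, and MALAT1 and NEAT1 spread most within a group.

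No lncRNA among the 10 was called as changed between HCC827/GR and HCC827. With a mean of at least 0.5 FPKM required, 8 of the 10 were tested, and HOTAIR and MEG3 fell below the filter. In limma with Benjamini-Hochberg adjustment over all 16189 entries tested, 0 of the 8 were called higher and 0 lower at an adjusted p under 0.05. The background was 5.26% of entries called higher and 5.71% called lower (11% in either direction), and among the 1579 tested entries of lncRNA genes 3.29% and 4.62%. At these shares 0 of 8 is near the background, and it is no result about the lncRNAs chosen. The count was also 0 at an unadjusted p under 0.05, for which the share over all entries is not given here. It was 0 too in a second model with the library-size covariate of Ballgown. That model called only 6 of all entries higher and 9 lower, so its 0 is no result about the lncRNAs either. By a fold of at least 2 with p under 0.05 the count was again 0, where 2.96% of all entries passed as higher and 3.97% as lower (6.94% together). The log2 fold change was above 0 for 5 and below 0 for 3 of them, with a median of 0.06, beside 0.00 over all tested entries and -0.04 over the lncRNA entries. The groups of libraries did not overlap for 1 of the 8, H19, against 46.3% of all tested entries and 45.7% of the lncRNA entries.

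**Figure D2:**
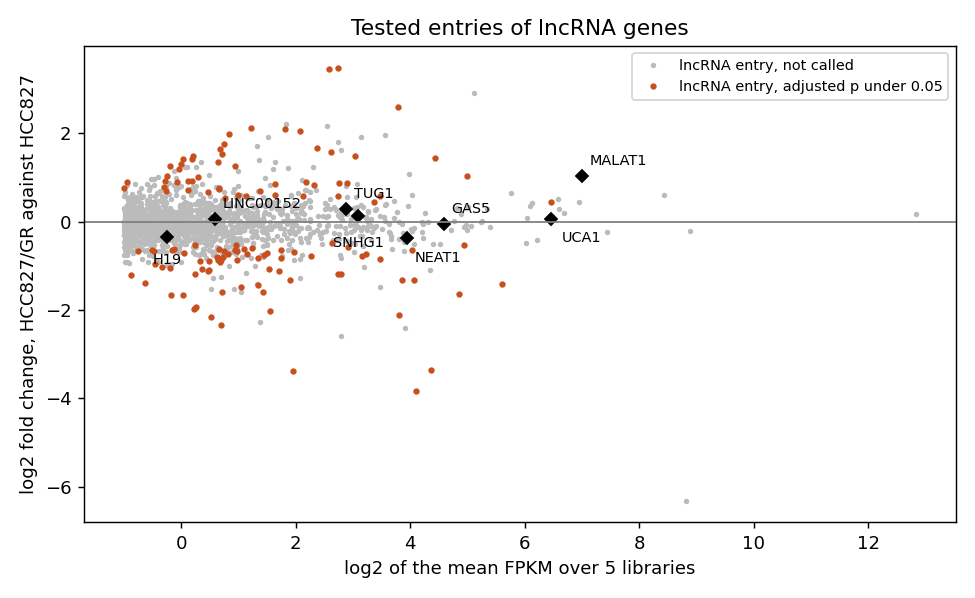
log2 fold change (HCC827/GR against HCC827) against the log2 of the mean FPKM over 5 libraries, for the 1579 tested entries of lncRNA genes. Orange points are the 125 entries with an adjusted p under 0.05, and black diamonds are the 8 tested lncRNAs, none of which is called.

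**Figure D3:**
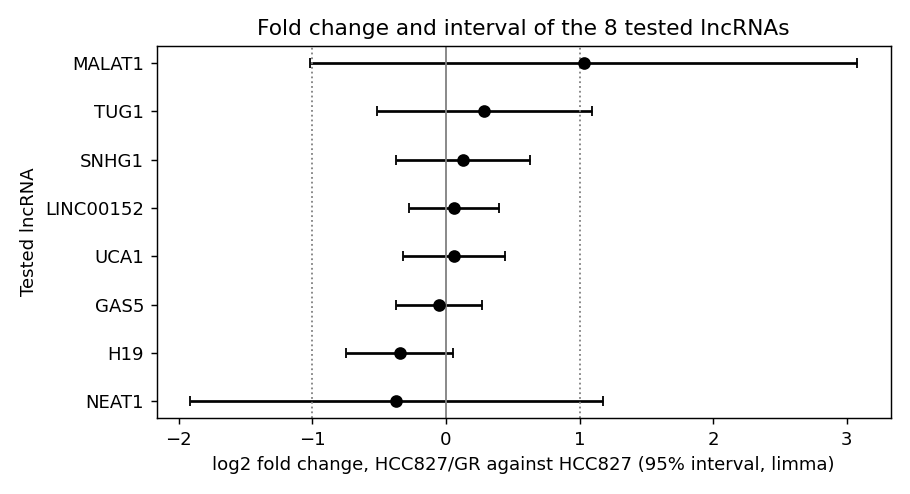
log2 fold change of the 8 tested lncRNAs with its 95% interval from limma; dotted lines mark a fold of 2 in either direction. Every interval includes 0, and those of MALAT1 and NEAT1 reach past a fold of 2 both ways.

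MALAT1 was the least even of the 9 lncRNAs above 0 in every library, with a highest library 8.45 times its lowest. It has no poly(A) tail, and its 3′ end is closed instead by a triple helix that U-rich stretches form with an A-rich tract. That end is shown because RNA without a tail is kept or lost by the way a library is selected. The stretch of the MALAT1 transcript (GENCODE 29, GRCh38, chr11:65506008-65506116, plus strand, exonic) ends on the base before an annotated small RNA that is cut from the same primary transcript. Capitals mark runs of at least 5 T and the longest run of A, 13 bases:

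MALAT1 3′ end: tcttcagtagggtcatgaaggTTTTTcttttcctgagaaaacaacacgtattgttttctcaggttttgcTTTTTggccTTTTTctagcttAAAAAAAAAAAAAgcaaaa

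The MALAT1 gene (chr11:65497688-65506516, plus strand) was measured at 130.8 and 34.1 FPKM in HCC827 replicates 2 and 3, and at 101.6, 288.0 and 89.1 FPKM in HCC827/GR replicates 1, 2 and 3. The groups overlapped: 1 HCC827 library was low, 1 HCC827/GR library was high, and the other three lay close together. The means were 82.4 ± 68.4 (SD, n = 2) and 159.6 ± 111.4 FPKM (SD, n = 3). The log2 fold change was 1.03 (SE 0.79, 95% interval -1.02 to 3.08, limma adjusted p = 0.466), so the data allow anything from a fold of 0.494 to a fold of 8.44 on the FPKM + 1 scale. The standard error was larger than that of 98.1% of tested entries. The fold change rested on single libraries, since it was 0.08 without HCC827 replicate 3, 0.50 without HCC827/GR replicate 2 and 1.98 without HCC827 replicate 2 (adjusted p from 0.286 to 0.963 with 1 library left out).

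NEAT1 lies beside MALAT1 (chr11:65422774-65445540, plus strand) and is the architectural RNA on which paraspeckle proteins assemble. It was measured at 26.8 and 9.73 FPKM in HCC827, and at 12.6, 20.9 and 7.03 FPKM in HCC827/GR replicates 1, 2 and 3. The groups overlapped, and within each group replicate 2 was the highest library. The means were 18.3 ± 12.1 and 13.5 ± 6.97 FPKM, with a log2 fold change of -0.37 (SE 0.59, 95% interval -1.91 to 1.17, limma adjusted p = 0.745). The standard error exceeded that of 95.1% of tested entries. The direction turned when HCC827 replicate 2 was left out, to 0.32, and the fold change was -1.06 without HCC827 replicate 3, so no direction can be given for NEAT1. MALAT1 was likewise highest in replicate 2 of each group.

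Libraries differed in what else they held. Small RNA genes made up 4.84% and 14.3% of the summed FPKM in HCC827 replicates 2 and 3, and 18.9%, 7.93% and 11.6% in HCC827/GR replicates 1, 2 and 3. They were lowest in the replicate 2 library of each group, where MALAT1 and NEAT1 were highest, and the part of this difference in the MALAT1 and NEAT1 levels was not tested beyond rescaling. Rescaling the libraries to an equal total gave a MALAT1 fold change of 0.99, and median-ratio scaling gave 1.04. The summed level of all entries of lncRNA genes was steadier, between 9.01% and 9.92% of the total in all 5 libraries. The 10 lncRNAs together made 278.0 and 178.5 FPKM in HCC827 and 256.7, 442.8 and 217.8 FPKM in HCC827/GR. MALAT1 supplied from 19.1% of that sum in HCC827 replicate 3 to 65.0% in HCC827/GR replicate 2, and UCA1 most of the rest.

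**Figure D4:**
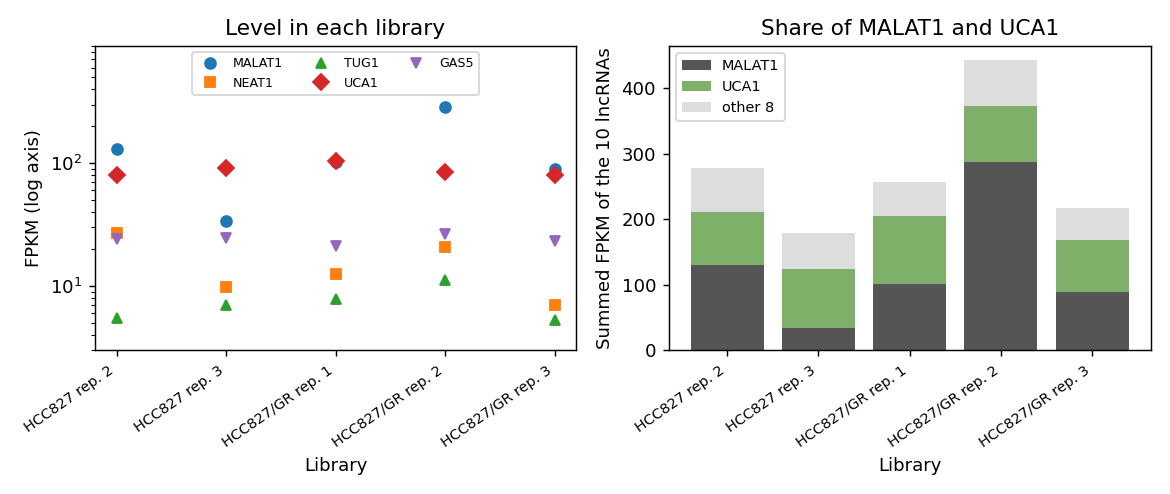
Left, FPKM (log axis) of MALAT1, NEAT1, TUG1, UCA1 and GAS5 in each library; right, summed FPKM of the 10 lncRNAs per library, split into MALAT1, UCA1 and the other 8. UCA1 and GAS5 are level across libraries, and the sum follows MALAT1, which is lowest in HCC827 replicate 3 and highest in HCC827/GR replicate 2.

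Genes for proteins of the bodies that these RNAs gather in or build were read from the same fit. In it, 11% of all entries were called and 5.71% were called lower. Counts this close to that share are no result about the lists. Of 16 tested paraspeckle protein genes, 0 were higher, 1 was lower and 15 did not pass, with a median log2 fold change of -0.04. The one that fell was NONO, a core protein that binds NEAT1. NONO was measured at 41.1 and 50.6 FPKM in HCC827 and at 25.6, 24.4 and 24.3 FPKM in HCC827/GR. Its groups did not overlap, as was so for 46.3% of all tested entries. The log2 fold change of NONO was -0.85 (SE 0.12, limma adjusted p = 0.0205). The call was kept only when HCC827 replicate 2 was the library left out (adjusted p from 0.0437 to 0.0751). Its partners SFPQ (log2 fold change 0.29, adjusted p = 0.187) and PSPC1 (0.17, adjusted p = 0.694) were not called. Of 15 nuclear speckle protein genes none was called in either direction, with a median of 0.03. SRRM2, a scaffold of speckles, had the highest fold change of that list, 1.08, with an adjusted p of 0.140. Among 8 tested entries of genes near MALAT1 and NEAT1, 0 were higher and 1 was lower. It was EHBP1L1, at 7.72 and 9.14 FPKM in HCC827 and 4.96, 4.54 and 5.06 FPKM in HCC827/GR (log2 fold change -0.69, SE 0.11, adjusted p = 0.0282, and 0.0702 to 0.101 with any 1 library left out). The adjacent FRMD8 had a fold change of -0.17 and was not called.

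H19, a growth-restraining imprinted RNA that is reciprocal to the growth factor gene IGF2, was the 1 tested lncRNA whose groups did not overlap. It also carries miR-675, whose mature strands are shown here as the part of H19 with a known product (RefSeq, GRCh38.p14, minus strand). The seed, bases 2 to 8, is in capitals. The 5p strand lies at chr11:1996800-1996822 and the 3p strand at chr11:1996768-1996787, inside the transcribed H19 gene:

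hsa-miR-675-5p: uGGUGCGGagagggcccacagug

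hsa-miR-675-3p: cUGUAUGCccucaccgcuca

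The 2 seeds differ, and FPKM of the H19 entry (chr11:1995176-2001470, minus strand) does not measure either strand. H19 was at 1.27 and 0.956 FPKM in HCC827, and at 0.803, 0.484 and 0.704 FPKM in HCC827/GR. Both HCC827 libraries were above all 3 HCC827/GR libraries. The means were 1.11 ± 0.222 and 0.664 ± 0.163 FPKM, and the log2 fold change was -0.35 (SE 0.15, 95% interval -0.75 to 0.06, limma adjusted p = 0.238). An exact two-sided permutation test over the 5 libraries gave p = 0.1, the smallest that 3 against 2 libraries allow. At this low level log2(FPKM + 1) understates a change, and the size depended on the treatment of the data. The log2 ratio of the mean FPKM was -0.75, while the fold change was -0.24 under quantile normalization and -0.16 with both replicate 2 libraries left out, an alternative chosen after seeing the data.

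Of the genes around H19, 5 of 11 entries were tested, with 1 called higher and 1 lower. The shares over all tested entries were 5.26% and 5.71%, and with so few entries these counts are no result about the region. CDKN1C, an imprinted cell cycle inhibitor of the same chromosome region, was higher, at 0.661 and 0.276 FPKM in HCC827 and 3.75, 3.54 and 2.004 FPKM in HCC827/GR. The log2 fold change of CDKN1C was 1.46 (SE 0.26, adjusted p = 0.0341). PHLDA2, an imprinted gene that limits placental growth, was lower, at 12.5 and 16.0 FPKM in HCC827 and 4.54, 5.54 and 7.76 FPKM in HCC827/GR. For PHLDA2 the log2 fold change was -1.15 (SE 0.23, adjusted p = 0.0464). With 1 library left out, both calls were kept only without HCC827/GR replicate 3, with adjusted p up to 0.148 for CDKN1C and 0.187 for PHLDA2 otherwise. CDKN1C passed the filter through HCC827/GR, and its call was also lost with no filter (adjusted p = 0.0730). That of PHLDA2 was also lost with no filter (0.0889), without the trend in limma (0.0513), and with median-ratio scaling (0.0560), a pseudocount of 0.1 (0.0519) or rescaling to an equal total (0.0598). IGF2 was below the filter, at 0.507 and 0.0734 FPKM in HCC827 and at most 0.0850 FPKM in HCC827/GR, and its groups overlapped.

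MEG3 (chr14:100779410-100861031, plus strand), an imprinted RNA with tumour-restraining activity, was listed at or near 0 in all 5 libraries. A listed 0 need not mean absence in these data, since RMRP, an RNA that every cell uses, was listed at 0 in all 5 libraries and RN7SK in 3. HCC827 replicate 2 was at 0.00236 FPKM, HCC827/GR replicate 3 at 0.00195 FPKM, and the other 3 libraries were listed at 0. No fold is given for it, and the exact two-sided permutation test gave p = 0.7. MEG8, its imprinted neighbour, reached at most 0.0153 FPKM, and DLK1, another imprinted neighbour, was not matched to an entry. WDR25, the 1 neighbour above the filter, had a log2 fold change of 0.06 and was not called.

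HOTAIR, transcribed from between HOXC11 and HOXC12 against the direction of the HOX genes, was the other lncRNA whose groups did not overlap. The HOTAIR gene (chr12:53962308-53974956) shares 1831 bases with HOXC11, but 0 of its 2602 exonic bases lie in a HOXC11 exon. HOTAIR was at 0.682 and 0.513 FPKM in HCC827, and at 0.152, 0.116 and 0.272 FPKM in HCC827/GR. All 3 HCC827/GR libraries were below both HCC827 libraries. The means were 0.597 ± 0.119 and 0.180 ± 0.0814 FPKM. The mean fell below the filter, so HOTAIR was not in the main test, and the exact two-sided permutation test gave p = 0.1, again the smallest possible. With no filter its difference in log2(FPKM + 1) was -0.44 (SE 0.11, limma adjusted p = 0.146), and it was not called, where 2.1% of the 36011 entries then tested were called lower and 33.7% did not overlap.

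Its neighbour HOXC11, a homeobox transcription factor gene, was the 1 of 4 tested HOXC entries to be called, as lower in HCC827/GR. Over all tested entries 5.71% were called lower, and with so few HOXC entries the count is no result about the HOXC genes. HOXC11 passed the filter only through HCC827, where its mean was 1.25 FPKM against 0.162 FPKM in HCC827/GR. HOXC11 was at 1.14 and 1.36 FPKM in HCC827, and at 0.162, 0.203 and 0.120 FPKM in HCC827/GR. Every HCC827/GR library was far below both HCC827 libraries, and the log2 fold change was -0.95 (SE 0.14, limma adjusted p = 0.0217). Without any one HCC827/GR library the adjusted p was 0.0672 to 0.0773, and without either HCC827 library the entry fell below the filter, as it did when a mean of 1 FPKM was required. After rescaling to an equal total the adjusted p was 0.0519. The other tested entries also had fold changes below 0 but were not called, with -0.27 for HOXC8, -0.43 for HOXC13 and -0.13 for an entry that joins HOXC4, HOXC10 and further genes. HOXC12 was nearly at 0, with 0.0825 and 0.0552 FPKM in HCC827 and at most 0.00924 FPKM in HCC827/GR. The strand setting of the libraries was not given in the sources used here, so reads within the shared introns of HOTAIR and HOXC11 may not be assigned to a strand.

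**Figure D5:**
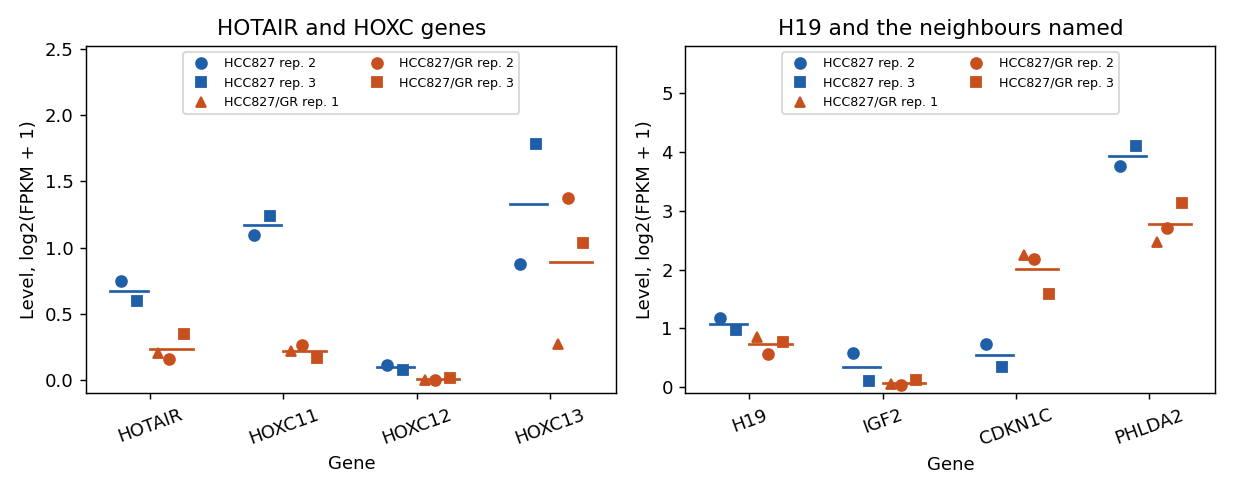
Levels, log2(FPKM + 1), of HOTAIR with HOXC11, HOXC12 and HOXC13 (left) and of H19 with IGF2, CDKN1C and PHLDA2 (right) in each library; symbol shapes give the replicate number and short lines the group means. HOTAIR and HOXC11 are lower in all 3 HCC827/GR libraries than in both HCC827 libraries, and CDKN1C is higher.

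Genes of the complexes that HOTAIR is known for, PRC2 and LSD1, were tested in 13 entries, with 0 called higher and 1 lower and a median of 0.12. Over all tested entries 5.71% were called lower, so this count is no result about the list. The call was RCOR1, the CoREST subunit that holds LSD1 on chromatin, at 10.8 and 10.4 FPKM in HCC827 and 6.00, 6.06 and 5.98 FPKM in HCC827/GR. RCOR1 had a log2 fold change of -0.73 (SE 0.08, limma adjusted p = 0.0122), and the call was kept only with HCC827/GR replicate 3 left out (adjusted p from 0.0467 to 0.0653). EZH2, the PRC2 methyltransferase, had a fold change of -0.32 (adjusted p = 0.154), and SUZ12, a core subunit, one of 0.27 (adjusted p = 0.117). EED, the subunit that reads the PRC2 mark, had a fold change of -0.04 (adjusted p = 0.871).

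GAS5 was the steadiest of the 10, with a highest library only 1.26 times its lowest. The spliced RNA of snoRNA hosts such as GAS5 and SNHG1 is read by ribosomes for a short stretch and then destroyed by nonsense-mediated decay, while the intronic snoRNAs survive. GAS5 (chr1:173863900-173868882, minus strand) was at 24.2 and 24.8 FPKM in HCC827, and at 21.3, 26.7 and 23.2 FPKM in HCC827/GR. The HCC827 values lay within the range of HCC827/GR. Its log2 fold change was -0.05 (SE 0.12, 95% interval -0.37 to 0.27, limma adjusted p = 0.832), so a fold outside 0.771 to 1.20 lies beyond the interval. The sign turned without HCC827/GR replicate 1, to 0.02. SNHG1 (chr11:62851988-62855914, minus strand) was at 6.66 and 9.41 FPKM in HCC827, and at 7.76, 8.30 and 10.4 FPKM in HCC827/GR. The groups overlapped, with replicate 3 the highest library of each group. Its log2 fold change was 0.13 (SE 0.19, 95% interval -0.37 to 0.63, limma adjusted p = 0.728), and -0.09 without HCC827 replicate 2.

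Of 20 entries of other snoRNA host genes, 13 were tested, with 0 called higher, 1 lower and a median log2 fold change of 0.11. With 5.71% of all tested entries called lower, that count is no result about the hosts. The one that fell was SNHG6, the host of a box C/D snoRNA, at 15.0 and 15.9 FPKM in HCC827 and 8.40, 8.55 and 7.63 FPKM in HCC827/GR. That is a log2 fold change of -0.84 (SE 0.10, limma adjusted p = 0.0124), and the call was lost without HCC827/GR replicate 1 or either HCC827 library (adjusted p up to 0.0668). SNHG16 had the largest fold change upward, 0.35, and was not called (adjusted p = 0.174). The snoRNAs inside GAS5 and SNHG1 have no entry of their own that could be matched.

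Among 10 genes of the decay pathway that removes these host RNAs, 0 were higher and 1 was lower, with a median of -0.03. Beside 5.71% called lower over all tested entries, this count is no result about the pathway. The gene called was UPF3B, which links the exon junction complex to decay. UPF3B was at 3.86 and 3.81 FPKM in HCC827 and 1.41, 1.77 and 1.29 FPKM in HCC827/GR. UPF3B had a log2 fold change of -0.96 (SE 0.12, limma adjusted p = 0.0150), and the call was lost without HCC827/GR replicate 1 or either HCC827 library (adjusted p up to 0.0927). UPF1, the central helicase, had a fold change of -0.25 (adjusted p = 0.311).

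Of the genes beside the hosts 1 was called. SLC3A2, the amino acid transporter heavy chain gene that starts next to SNHG1 on the opposite strand, was at 49.0 and 58.7 FPKM in HCC827, and at 108, 113 and 118 FPKM in HCC827/GR. Every HCC827/GR library was above both HCC827 libraries, and its log2 fold change was 1.06 (SE 0.12, limma adjusted p = 0.0122), the one call among 7 tested entries near SNHG1. The call was lost without HCC827/GR replicate 1 or 2 or HCC827 replicate 2 (adjusted p up to 0.0601). The difference between the fold changes of SLC3A2 and SNHG1 was not tested. Of 5 tested genes near GAS5, none was called, and ZBTB37, which overlaps it by 801 bases on the other strand, had a fold change of 0.09. Over all tested entries 5.26% were called higher and 11% in either direction, so these counts are no result about the neighbours.

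UCA1 (chr19:15828206-15836326, plus strand), named for urothelial cancer, could not be ranked against MALAT1 in level and was far more even. It was at 80.5 and 90.6 FPKM in HCC827, and at 103.4, 85.5 and 80.0 FPKM in HCC827/GR. The groups overlapped fully. The means were 85.6 ± 7.14 and 89.6 ± 12.2 FPKM, and the log2 fold change was 0.06 (SE 0.15, 95% interval -0.32 to 0.44, limma adjusted p = 0.841), which leaves a fold from 0.798 to 1.36. The sign turned without HCC827/GR replicate 1 (-0.05) and without HCC827 replicate 2 (-0.02). LINC01764 is annotated across UCA1 on the opposite strand and shares 11.8% of its exonic bases. Of 2 tested neighbours, neither was called, beside 11% of all tested entries. The adjacent CYP4F11 stayed below the filter, at 0.246 and 0.176 FPKM in HCC827 and at most 0.0684 FPKM in HCC827/GR.

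TUG1 (chr22:30969245-30979395, plus strand), first described in retinal development, was at 5.54 and 6.99 FPKM in HCC827, and at 7.92, 11.3 and 5.27 FPKM in HCC827/GR. The groups overlapped, and HCC827/GR held both the highest and the lowest library. Its log2 fold change was 0.29 (SE 0.31, 95% interval -0.52 to 1.09, limma adjusted p = 0.613), and 0.05 without HCC827/GR replicate 2. Of 5 tested neighbours, 1 was called higher, SMTN, a smooth muscle cytoskeletal protein gene, in an entry that joins 2 genes. That count is no result about the neighbours, with 5.26% of all tested entries called higher. SMTN was at 0.701 and 0.849 FPKM in HCC827 and 2.19, 1.91 and 2.27 FPKM in HCC827/GR (log2 fold change 0.82, SE 0.11, limma adjusted p = 0.0197). With any 1 library left out its adjusted p was 0.0548 to 0.0968, and with no filter 0.0507. Under quantile normalization SELENOM, a selenoprotein gene, was called too (log2 fold change 0.93 and adjusted p = 0.0598 without it). MORC2, which shares its promoter region with TUG1, had a fold change of 0.12 and was not called.

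LINC00152 (chr2:87454781-87636740, plus strand) has a near-identical copy, MIR4435-2HG, on the same chromosome, so reads of one can map to the other. Aligned transcripts of the pair agreed at 750 of 759 positions (98.8%). The stretch below, 180 bases across 3 exons (GENCODE 29, GRCh38), is shown for how few bases tell the copies apart. It lies within chr2:87455627-87480274 on the plus strand in LINC00152 and within chr2:111469936-111494903 on the minus strand in MIR4435-2HG, and capitals mark the 4 bases that differ:

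LINC00152: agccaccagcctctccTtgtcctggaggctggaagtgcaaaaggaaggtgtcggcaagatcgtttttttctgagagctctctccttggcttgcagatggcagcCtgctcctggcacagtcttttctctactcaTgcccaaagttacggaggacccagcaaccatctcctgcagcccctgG

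MIR4435-2HG: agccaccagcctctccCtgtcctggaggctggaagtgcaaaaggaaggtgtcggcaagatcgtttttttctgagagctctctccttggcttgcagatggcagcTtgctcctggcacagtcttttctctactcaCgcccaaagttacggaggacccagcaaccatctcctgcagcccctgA

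LINC00152 was at 1.56 and 1.33 FPKM in HCC827, and at 1.32, 1.54 and 1.82 FPKM in HCC827/GR. The groups overlapped, and its log2 fold change was 0.06 (SE 0.13, 95% interval -0.28 to 0.40, limma adjusted p = 0.816). The sign turned without HCC827/GR replicate 3 (-0.01) or HCC827 replicate 3. MIR4435-2HG was at 2.47 and 2.21 FPKM in HCC827, and at 1.96, 1.71 and 1.81 FPKM in HCC827/GR. Its groups did not overlap, as was so for 45.7% of the tested lncRNA entries. The log2 fold change of MIR4435-2HG was -0.24 (SE 0.10, limma adjusted p = 0.218). How the authors divided shared reads between the copies was not given in the sources used here, so both levels are uncertain. None of 4 tested neighbours of LINC00152 was called, beside 11% of all tested entries. Without HCC827 replicate 3, KRCC1 was called, but that fit holds 1 HCC827 library and takes its spread from HCC827/GR alone. KRCC1 was at 9.76 and 2.004 FPKM in HCC827 and 3.72, 3.78 and 4.03 FPKM in HCC827/GR.

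A wider list of 41 other cancer-associated lncRNAs was read from the same fit. Of 36 entries found, 15 were tested, and 1 was called higher and 4 lower, with a median log2 fold change of -0.26, beside 3.29% higher and 4.62% lower and a median of -0.04 over the tested lncRNA entries. Among tested entries, those used for CRNDE, LINC00511, FTX and DLEU2 hold no GENCODE transcript, nor does the only entry of LUCAT1. Annotated entries of the first 4 were put in, an alternative chosen after seeing the data, while LUCAT1 kept its entry. Then 1 was called higher and 2 lower of 15, with a median of -0.12. LINC00472, described as a tumour-restraining RNA, was higher in an entry that joins 3 genes, at 1.77 and 1.58 FPKM in HCC827 and 8.11, 6.76 and 7.71 FPKM in HCC827/GR. Its log2 fold change was 1.67 (SE 0.11, limma adjusted p = 0.00457), and it stayed called whichever HCC827/GR library was dropped. With any 1 library left out the fold change was 1.62 to 1.74. The other four calls were lower. The fold change was -0.83 for MIR31HG (adjusted p = 0.0124) and -0.77 for CDKN2B-AS1 (adjusted p = 0.0463, an entry that joins 3 genes). The naming rule takes the entry with the highest mean. That of CRNDE, 1 of 3, was at 1.37 and 2.55 FPKM in HCC827, at 0.0908 FPKM in HCC827/GR replicate 1 and listed at 0 in the other HCC827/GR libraries (adjusted p = 0.0219), and it passed the filter only through HCC827. The annotated CRNDE entry was at 0.765 and 0.580 FPKM in HCC827 and 0.540, 0.495 and 0.790 FPKM in HCC827/GR, with a log2 fold change of -0.06 (SE 0.15, adjusted p = 0.851), so no change of CRNDE is reported. The LINC00511 entry, 1 of 23, had a log2 fold change of -0.85 (adjusted p = 0.0240), while its annotated entry had one of -0.53 (SE 0.20, adjusted p = 0.178). With 1 library left out, the call of MIR31HG was lost without HCC827/GR replicate 1 or either HCC827 library, and those of CDKN2B-AS1 and LINC00511 with any library dropped. The CDKN2B-AS1 call was also lost with no filter (adjusted p = 0.0891), without the trend in limma (0.0521), with entries of one symbol summed (0.0508) and with a pseudocount of 0.1 (0.0512), and that of LINC00511 with no filter (0.0524) and with entries summed (0.0804). NORAD, an abundant RNA that guards chromosome stability, had a fold change of -0.41 (adjusted p = 0.0719).

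The cell line was checked against its markers. All 8 epithelial markers were above the filter, and summed to 1224 and 1338 FPKM in HCC827 and 596.9, 643.5 and 506.6 FPKM in HCC827/GR. Of them 6 were called lower and none higher, beside 5.71% and 5.26% of all tested entries, with a median log2 fold change of -1.53. EPCAM, an epithelial adhesion gene, was at 86.9 and 72.6 FPKM in HCC827 and 7.32, 10.8 and 8.53 FPKM in HCC827/GR. KRT18 was the most abundant of the list, at 425.0 and 550.0 FPKM in HCC827 and 269.7, 277.6 and 218.8 FPKM in HCC827/GR. EPCAM and KRT7, the latter in an entry joined with KRT86, stayed called whichever HCC827/GR library was dropped. With any 1 library left out the log2 fold change was -3.18 to -2.91 for EPCAM and -1.59 to -1.45 for KRT7. CLDN7 was read from an entry that joins 5 genes. The calls of KRT18 and CLDN7 were lost with any library dropped and with no filter (adjusted p = 0.175 and 0.0559). That of CLDN7 was also lost without the trend in limma (0.0651), with median-ratio scaling (0.0555), quantile normalization (0.0547) or rescaling to an equal total (0.139). The call of CDH1 was lost without either HCC827 library, and that of KRT19 without HCC827/GR replicate 1 or HCC827 replicate 2. Fibroblast markers summed to at most 1.16 FPKM in any library, most of it COL1A1, with DCN and THY1 at or near 0. PDGFRB was at 0.00777 and 0.0147 FPKM in HCC827 and 0.278, 0.184 and 0.184 FPKM in HCC827/GR, and LUM at 0.0930 and 0.257 FPKM in HCC827 and 0.0129, 0.0123 and 0.0255 FPKM in HCC827/GR, so these markers differed in opposite directions, both below the filter. Of the leukocyte markers CD68 made nearly all of the sum of 31.2 to 39.3 FPKM, in an entry that joins 6 genes, and PTPRC was at most 0.0228 FPKM. Endothelial markers summed to 4.44 and 3.42 FPKM in HCC827 and to at most 0.108 FPKM in HCC827/GR, with VWF and TEK at or near 0. In HCC827 nearly all of the sum was PECAM1, an endothelial adhesion gene, in 1 of its 10 entries. That entry holds no GENCODE transcript, was listed at 0 in all 3 HCC827/GR libraries and was called lower (limma adjusted p = 0.00390), and it passed the filter only through HCC827. The annotated PECAM1 entry was below the filter, at 0.249 and 0.145 FPKM in HCC827 and at most 0.0269 FPKM in HCC827/GR. In HCC827/GR the largest endothelial marker was KDR, listed at 0 and at 0.00672 FPKM in HCC827 and at 0.0743, 0.0584 and 0.0830 FPKM in HCC827/GR. The epithelial sum was lower in all 3 HCC827/GR libraries, as HOTAIR and H19 were, and its part in those levels was not tested.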

How the data were processed

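RNA-sequencing libraries of HCC827/GR (n = 3) and HCC827 (n = 2) were examined. The deposited FPKM values were made by the authors with Cutadapt, FastQC, Bowtie2, TopHat2 and StringTie. The submitters' processing notes name hg18, yet the table holds no positions, and 135164 of its 135299 Ensembl transcript identifiers are in GENCODE 29, from which positions were taken. The methods describe ribosomal RNA-depleted paired-end libraries and the labels a small RNA kit, and this was not resolved. In all, 1 column of values matched no sample and was not used. FPKM holds no read counts, so no count model, counting interval or floor was possible. Entries whose mean reached 0.5 FPKM were fitted as log2(FPKM + 1) in limma 3.58.1 (R 4.3.3, eBayes with trend, two-sided, Benjamini-Hochberg). HOTAIR, MEG3 and H19 were given an exact permutation test (scipy 1.17.1). Of several entries of a symbol, the one with the highest mean was used. The pseudocount understates changes of low genes. The fit was tested on simulated data, but no outcome of that test is given or used here. The members and the 24 comparison lists were chosen with earlier results of these data known. Named genes were the lncRNAs, up to 6 called genes per list, and their core partners and adjacent genes; SRRM2, SNHG16, NORAD, WDR25, HOXC8, HOXC13, PDGFRB, LUM, KDR, KRCC1, SELENOM and the joint HOXC4 entry were added after their values were seen, and 1 gene covered by that rule is not reported here. Alternatives varied pseudocount, filter, scaling, model, replicate block and libraries. Leaving out an HCC827 library left 1 library in that group, so the spread then came from HCC827/GR alone.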

Additional observations from a re-analysis of the deposited data

How the results depend on the processing

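None of the 8 tested lncRNAs was called under any alternative that tested it, and H19 was not tested at a filter of 1 FPKM. HOTAIR and MEG3 were tested only with no filter and were not called. All calls in the comparison lists were lost with the Ballgown covariate, with the replicate block and without both replicate 2 libraries. With 851 called higher and 924 lower in the reported fit, the counts were 6 and 9 with the Ballgown library-size covariate, 504 higher with no filter (757 lower), 528 and 541 after rescaling to an equal total, and 0 and 0 with both replicate 2 libraries left out, an alternative chosen after seeing the data. By fold and p, 480 and 643 became 860 and 1024 at a pseudocount of 0.1, 919 and 1201 by the ratio of means, and 806 and 1092 after rescaling. With 1 library left out, 181 to 450 were called higher and 248 to 434 lower.

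With the replicate number as a block, 0 entries were called higher and 0 lower, with 1 residual degree of freedom before moderation. Deviations of same-numbered libraries correlated at 0.0328 and 0.0147 across entries, so the numbers were not taken to pair the libraries. Under the block the signs of GAS5 (0.020) and UCA1 (-0.046) turned.

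Other turned signs were those of LINC00152 (-0.066), NEAT1 (0.024) and SNHG1 (-0.065) with the Ballgown covariate, UCA1 (-0.024) under quantile normalization, and SNHG1 (-0.060) and TUG1 (-0.095) without both replicate 2 libraries. With 1 library left out the fold change ran from -0.14 to 0.020 for GAS5, -0.010 to 0.13 for LINC00152 (-0.0073 without HCC827 replicate 3), -1.06 to 0.32 for NEAT1, -0.094 to 0.35 for SNHG1 and -0.046 to 0.14 for UCA1 (-0.024 without HCC827 replicate 2). The cause was not tested. Depth is unknown, so what it limits for HOTAIR, H19 and MEG3 cannot be given.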

Other observations

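Of the 1579 tested entries of lncRNA genes 125 were called by limma, and the following were chosen after their values were seen, from among the largest fold changes of named lncRNA entries called by limma. PAPPA-AS1, antisense to the gene of a growth factor-releasing protease, rose from 0.722 and 0.837 FPKM in HCC827 to 5.40, 8.24 and 5.86 FPKM in HCC827/GR (log2 fold change 2.06). VCAN-AS1, antisense to the matrix proteoglycan gene VCAN, rose from 9.70 and 10.7 FPKM to 28.7, 29.4 and 29.4 FPKM (1.43), and LINC01638 rose from 0.0696 and 0.115 FPKM to 3.40, 2.10 and 2.74 FPKM (1.76). LINC01638 passed the filter only through HCC827/GR.

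EGFR-AS1, antisense within the gene that gefitinib targets, fell from 46.6 and 44.9 FPKM in HCC827 to 4.20, 3.31 and 3.33 FPKM in HCC827/GR (log2 fold change -3.35). KRT7-AS, beside the keratin gene KRT7, fell from 49.2 and 49.4 FPKM to 15.7, 16.4 and 13.3 FPKM (-1.64). NKX2-1-AS1, beside the lung lineage factor gene NKX2-1, fell from 3.25 and 3.57 FPKM to 0.433, 0.685 and 0.283 FPKM (-1.60), and DDIT4-AS1 fell from 100.3 and 58.1 FPKM to 28.0, 27.8 and 28.8 FPKM (-1.41). NKX2-1-AS1 passed the filter only through HCC827. Among the called lncRNA entries named in this section, the limma adjusted p ran from 0.00161 for EGFR-AS1 to 0.0329 for DDIT4-AS1. The SE of the log2 fold change was 0.12 for EGFR-AS1 and 0.24 for DDIT4-AS1. No entry at all was called with the replicate block or without both replicate 2 libraries, so these calls were lost there too. The strand setting of the libraries was not given in the sources used here, so reads of an antisense RNA and of its sense partner cannot be told apart.

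Of 3 abundant structural RNAs matched, RMRP was listed at 0 in all 5 libraries. RN7SK, part of the complex that restrains transcription elongation, was listed at 0 in HCC827 replicate 2 and in HCC827/GR replicates 2 and 3, and at 5286 and 10154 FPKM in HCC827 replicate 3 and HCC827/GR replicate 1. RN7SL2, a signal recognition particle RNA, was at 736.2 and 1010.3 FPKM in HCC827 and at 497.0, 0.378 and 0.874 FPKM in HCC827/GR.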
